A study of Rattus norvegicus with 15 samples.

Results

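The lysosome genes are the genes that the deposited table assigns to the KEGG Lysosome pathway, ABC transporters left out, with at least 50 counts summed over the 15 libraries. Of 21969 genes in the table, 115 carried that assignment, 2 of them were ABC transporters, and 111 of the remaining 113 reached the minimum. The 2 genes below it were Dnase2b with 4 counts and Napsa with 40 counts, and the members nearest above it were Atp6v0d2 with 63, Ctsw with 84 and Laptm5 with 165 counts. The libraries came from epithelial cells of rat trachea, grown and then differentiated for weeks at an air-liquid interface. Cells in 5 libraries received 10% CSE for 24 h with 100 µM naringenin, a flavanone of citrus fruit, added 4 h before, cells in 5 received 10% CSE for 24 h, and 5 untreated controls received neither. The labels do not expand CSE, name no strain, animal or culture, and give no library with naringenin alone, so p-values measure the spread between these libraries, which may be technical.

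Lysosomes are acidic organelles in which enzymes break down proteins, glycans, lipids and nucleic acids delivered by endocytosis and autophagy. A proton pump in the membrane sets the low pH, the mannose 6-phosphate tag and its receptors carry newly made enzymes from the Golgi, and transporters export the products. Transcription factors of the TFEB family bind a motif with the core CACGTG, the CLEAR element, at many lysosomal genes. In the airway, epithelial cells take up inhaled material, and lysosomes lie at the end of that route.

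Levels between genes were compared in FPKM, which are fragments per kilobase of gene and 1e6 fragments as deposited. Over the 15 libraries, 21 of the 111 members averaged above 100 FPKM, 83 above 10 FPKM and 104 above 1 FPKM. The most abundant were Atp6v0c, the proteolipid subunit of the proton pump, at 398 FPKM, Psap, the precursor of the saposins that help lipid hydrolases, at 298 FPKM, and Ctsb, a cysteine protease, at 292 FPKM. Cd63, Cd164, Ctsd, Fuca1, Ctsl and Lamp1 lay between 253 and 190 FPKM. At the other end were 7 members under 1 FPKM, which included Laptm5, Ctsw and Atp6v0d2, leukocyte or osteoclast genes in other tissues, and Ctsk at 0.854 FPKM. The members together made up 1.23% ± 0.0397 of all FPKM in CSE with naringenin, 1.23% ± 0.0531 in CSE and 1.23% ± 0.0269 in control (SD, n = 5 each). The summed share thus differed between groups by less than the SD between libraries. Shares of members sorted by role could differ by more. The proton pump made up 0.143% ± 0.00436 of all FPKM in CSE against 0.128% ± 0.00358 in control (SD, n = 5 each). Its summed FPKM averaged 718 in CSE and 633 in control, and Atp6v0c alone averaged 444 in CSE and 354 in control. The difference in the pump's summed FPKM thus lay in Atp6v0c and not in the other subunits together. Adaptors and clathrin made up 0.141% ± 0.00107 in CSE against 0.131% ± 0.00396 in control. Glycosidases were lower, at 0.193% ± 0.0151 in CSE against 0.213% ± 0.0169 in control.

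**Figure D1:**
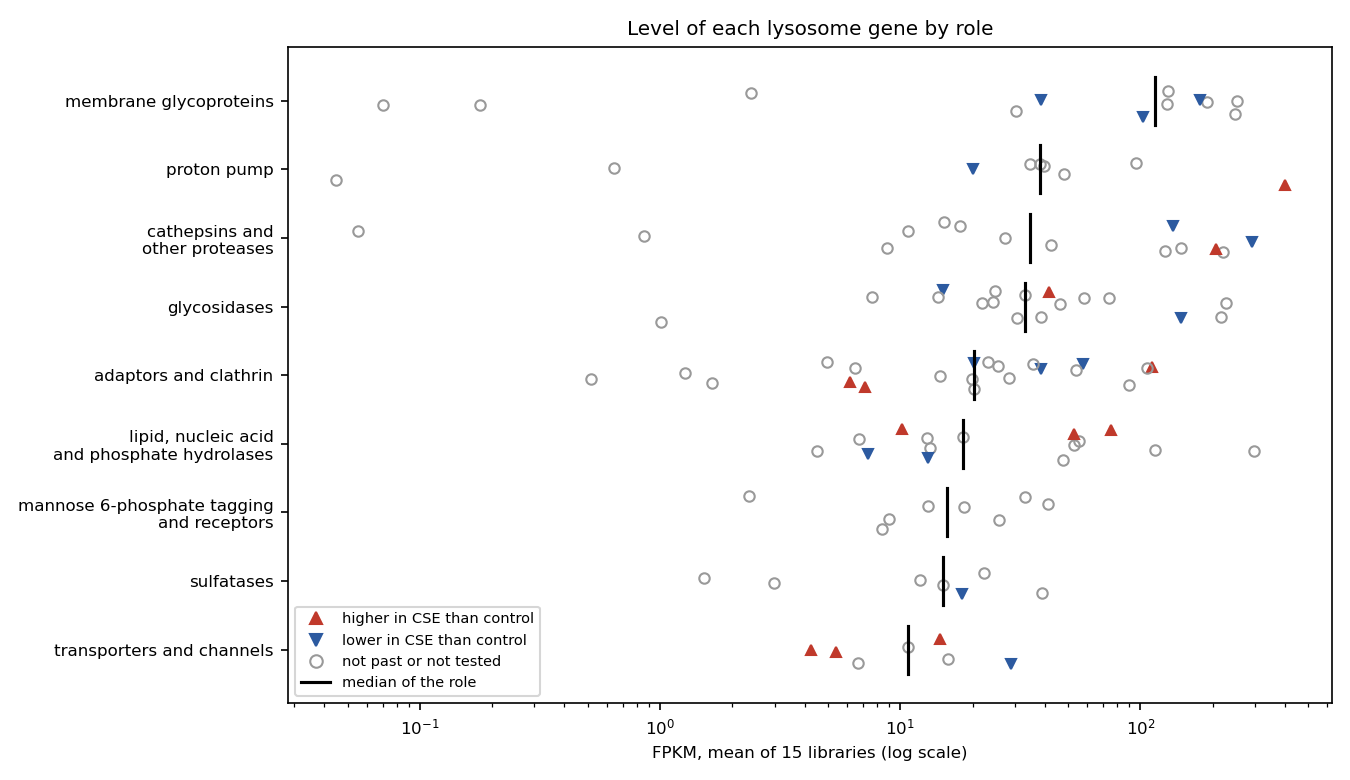
Mean FPKM over 15 libraries (log scale) of each lysosome gene, by role, with a vertical bar at the median of the role and triangles for genes higher (red, upward) or lower (blue, downward) in CSE than in control at an edgeR adjusted p under 0.05. Most members lie above 10 FPKM (83 of 111), and triangles of both directions occur in 6 of the 9 roles.

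The libraries held 55.1 to 60.6 M counts each (M for 1e6), and CPM are counts per 1e6 scaled by TMM. The median coefficient of variation of a member's CPM within a group was 9.95% (quartiles 6.53% and 16.7%). The libraries fell into 3 sets that cut across the groups when clustered on all genes after group means were removed, with 2 libraries of each group in sets 1 and 2 and the library numbered 5 of each group in set 3. Set 1 held libraries 3 and 4 of CSE with naringenin, 1 and 3 of CSE and 1 and 2 of control, and set 2 the rest. All 11 airway epithelial markers present in the table were above the detection floor of 3 counts. Their summed CPM was 4493 to 5608 in CSE with naringenin and 4549 to 5667 in CSE, against 6336 to 9308 in control. In bulk RNA, fewer cells of a type and less RNA per cell cannot be told apart, and the part of this shift in the results was not tested. Of 15 markers of macrophages and other leukocytes 13 were in the table, and their summed CPM was 112 to 168 in CSE with naringenin, 101 to 151 in CSE and 135 to 162 in control. Most of that sum was Cd14, while Ptprc, the leukocyte common antigen, averaged 0.0108 FPKM and had 0 counts in all 5 libraries of CSE with naringenin, 3 of CSE and 4 of control. The 8 stromal markers in the table summed to 33.6 to 222 CPM in CSE with naringenin and 17.3 to 129 CPM in CSE, against 154 to 580 CPM in control. The 3 endothelial markers in the table summed to 3.14 to 4.5 CPM in CSE with naringenin, 2.7 to 4.99 CPM in CSE and 2.68 to 5.91 CPM in control.

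The first comparison asks which lysosome genes differed between CSE-treated and untreated cells. Of 109 members that passed the filter on low counts, 12 had more RNA in CSE than in control and 15 had less (edgeR, adjusted p under 0.05 over 15860 genes), which is 24.8%. Over all tested genes the share was 21.2%, with 10.8% higher and 10.4% lower, so the members' share lay near that of all genes. Their median log2 fold change was -0.05, against 0 for all genes tested. Most changes were small: 25 of the 27 were between -0.69 and 0.69 on the log2 scale, and the other 2, Psapl1 and Acp5, were larger and lower in CSE. The groups did not overlap for 18 members (7 higher, 11 lower), or 16.5%, against 14.6% of all genes tested. At an unadjusted p under 0.05 there were 41 of the 109, against 34.7% of all genes. With 1 library left out, the count of higher members went down to 7 without control 4 or without CSE 5. Upper-quartile scaling gave 16 higher and 13 lower. When the library set entered the fit as a block, 20 members were higher and 31 lower (46.8%), all 27 calls were kept, and all 27 had the same sign in each set, against 39.9% of all genes called with that block. The sets were themselves derived from these counts, and the 27 were selected for a difference in the same libraries. Their kept calls and their signs are thus no separate test. With counts summed per library set and group and the same block, 12 of 111 members were higher and 17 lower (26.1%, against 23.8% of all genes), and 22 of the 27 calls were kept, those of Ap1b1, Ap4b1, Arsa, Cltb and Ctsb being lost. DESeq2 called 15 higher and 21 lower of 110 members (32.7%, against 24.9% of all genes), with all 27 calls kept.

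Transporters and channels of the lysosomal membrane had 3 higher and 1 lower members of 7 tested in CSE, by edgeR, by DESeq2 and with the library set as a block. This is 57.1% of a role of 7 genes, against 21.2% of all tested genes by edgeR, 24.9% by DESeq2 and 39.9% with the block. Mcoln1, the channel TRPML1 that releases calcium from lysosomes, and Ctns, cystinosin, which exports cystine, were higher in CSE than in control. Slc11a2, the iron transporter DMT1 of endosomes and the cell surface, was lower. Mcoln1 had 33.4, 33.3, 35.1, 31.1 and 35.3 CPM in CSE with naringenin, 35.7, 42.1, 41.1, 44.1 and 36.9 CPM in CSE and 30.1, 31.3, 29, 24.6 and 25.5 CPM in control. All 5 CSE libraries lay above all 5 controls, and the libraries with naringenin lay under all CSE libraries and above 4 of the controls. The log2 fold change of Mcoln1 was 0.51 ± 0.08 (SE) in CSE against control (1.42-fold, edgeR adjusted p = 0.000584). In the deposited table Mcoln1 (ENSRNOG00000000975) is on chromosome 12 from 2054680 to 2068682, in coordinates whose build the sources used here do not give.

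Ctns had 16.3, 15.8, 18.5, 21.8 and 16.6 CPM in CSE with naringenin, 19.3, 12.9, 20.8, 13.9 and 18.6 CPM in CSE and 10.9, 11.6, 9.87, 10.6 and 10.1 CPM in control. Every treated library, with or without naringenin, was above every control library. Ctns (ENSRNOG00000028688, chromosome 10) was 1.61-fold higher in CSE than in control, a log2 fold change of 0.69 ± 0.13 (SE) with an edgeR adjusted p of 0.0024. Slc11a2 had 160, 168, 171, 170 and 146 CPM in CSE with naringenin, 151, 139, 124, 127 and 130 CPM in CSE and 194, 209, 203, 196 and 280 CPM in control. All CSE libraries and all with naringenin were below all controls, and control 5 stood far above the other controls. Slc11a2 (ENSRNOG00000019550, chromosome 7) had a log2 fold change of -0.69 ± 0.1 (SE) in CSE against control, with an edgeR adjusted p of 0.000248, and it was -0.58 without control 5. Mfsd8, a membrane protein that is defective in one form of neuronal ceroid lipofuscinosis, was also higher in CSE, at 17.1 ± 1.61 CPM against 13.6 ± 1.52 CPM in control (SD, n = 5 each; log2 0.33, edgeR adjusted p = 0.0396). That call was lost in 7 of 10 fits without 1 library (without control 2, 3 or 4 or CSE 1, 2, 3 or 5), with an adjusted p of up to 0.0957. The other 3 members of the role were not past the threshold: Cln3 (log2 0.1), Slc11a1, the metal transporter of phagosomes (0.01), and Slc17a5 (-0.14).

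Promoter sequences are shown for 4 members because the TFEB family motif is known from lysosomal genes and both genes that rose and genes that did not could be searched for it. They come from RefSeq, build GRCr8, span 250 bases before to 50 after the gene's start, and matched 89 of the 111 members by symbol. Capitals mark GTCACGTG or its reverse complement, which hold the core and can overlap each other. Mcoln1 and Gaa were higher in CSE, Lamp1 was not past the threshold, and Slc11a2 was lower.
Mcoln1 promoter, chr12:6358008-6358307, plus strand: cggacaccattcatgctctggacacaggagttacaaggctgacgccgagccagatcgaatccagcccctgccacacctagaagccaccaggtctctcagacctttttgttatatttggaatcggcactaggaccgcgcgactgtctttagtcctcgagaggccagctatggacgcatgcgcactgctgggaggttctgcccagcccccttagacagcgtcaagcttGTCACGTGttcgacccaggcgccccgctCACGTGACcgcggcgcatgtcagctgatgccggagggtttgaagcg
Gaa promoter, chr10:105028105-105028404, plus strand: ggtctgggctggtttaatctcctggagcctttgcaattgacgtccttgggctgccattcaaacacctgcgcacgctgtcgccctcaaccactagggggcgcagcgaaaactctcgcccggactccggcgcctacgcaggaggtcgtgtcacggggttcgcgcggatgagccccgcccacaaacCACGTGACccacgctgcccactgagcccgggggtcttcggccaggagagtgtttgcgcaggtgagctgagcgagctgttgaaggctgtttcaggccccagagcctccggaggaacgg
Lamp1 promoter, chr16:83075014-83075313, minus strand: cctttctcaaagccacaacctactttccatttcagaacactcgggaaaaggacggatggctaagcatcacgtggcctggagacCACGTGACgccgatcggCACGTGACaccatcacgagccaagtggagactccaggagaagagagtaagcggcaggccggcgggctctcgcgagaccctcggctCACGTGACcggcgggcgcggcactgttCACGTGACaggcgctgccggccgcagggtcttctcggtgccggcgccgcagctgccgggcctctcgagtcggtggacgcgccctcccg
Slc11a2 promoter, chr7:133417739-133418038, minus strand: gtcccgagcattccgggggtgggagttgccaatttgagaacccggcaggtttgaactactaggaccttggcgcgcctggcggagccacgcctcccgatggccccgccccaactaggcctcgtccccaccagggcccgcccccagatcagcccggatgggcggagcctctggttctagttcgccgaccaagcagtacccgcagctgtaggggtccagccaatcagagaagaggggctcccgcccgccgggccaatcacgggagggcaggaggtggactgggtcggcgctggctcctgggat
On both strands, GTCACGTG was found in 14 of the 89 member promoters (15.7%), against 554 of 27457 RefSeq promoters of the same length (2.02%). The core CACGTG was in 20.2% of member promoters against 6.65% of all, and TCACGTGA, which overlaps the other 2, in 11.2% against 0.867%. Lamp1, a heavily glycosylated protein of the lysosomal membrane, had 4 matches to GTCACGTG, Mcoln1 had 2 and Gaa 1, each at a separate core. Igf2r, the large mannose 6-phosphate receptor, also had 4 matches, but at only 2 cores, each matched on both strands. Among members with a promoter, GTCACGTG was in 2 of 12 that were higher in CSE (Mcoln1 and Gaa), in 0 of 10 that were lower and in 12 of 67 that were not past the threshold. The 12 comprised Lamp1, Igf2r, Ctsd, Galc, Glb1, Idua, Gnptg, Nagpa, Cd164, Atp6v0d1, Sumf1 and Cln3, whose log2 fold changes in CSE against control ran from -0.23 to 0.22. Its share was thus higher in member promoters than in all promoters, and it was 16.7% in the higher members and 17.9% in those not past the threshold. The set of all promoters was not limited to genes detected in these libraries, as the members are. A share over detected genes only was not computed. A match describes letters in a window and not a bound site, and its absence says nothing of the factor.

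Of the proton pump, 1 of 8 tested members was higher in CSE and 1 lower (edgeR, 25%, against 21.2% of all tested genes). Atp6v0c, which lines the proton path through the membrane and was the most abundant member, was higher. Atp6v0c had 510, 483, 503, 470 and 556 CPM in CSE with naringenin, 503, 550, 551, 549 and 672 CPM in CSE and 460, 457, 439, 438 and 547 CPM in control. In each group library 5 was the highest, and the CSE and control libraries overlapped. The log2 fold change in CSE against control was 0.27 ± 0.08 (SE), with an edgeR adjusted p of 0.0328. The Atp6v0c call was lost without control 1, 2, 3 or 4 or without CSE 2, 3, 4 or 5. There the edgeR adjusted p reached 0.0914. Over all 10 fits without 1 library, the log2 fold change of Atp6v0c ran from 0.2 to 0.33. The fit without control 5 kept the call, at 0.33 (edgeR adjusted p = 0.00808). Atp6v0a1, one of the alternative subunits that anchor the pump in the membrane, averaged 80.9 ± 9.67 CPM in CSE against 104 ± 13.8 CPM in control (SD, n = 5 each), a log2 fold change of -0.36 (edgeR adjusted p = 0.0331). Without control 3 or 4, or CSE 3 or 5, its adjusted p reached up to 0.0794. Tcirg1, another form of that subunit, did not pass the threshold (log2 0.01), nor did the accessory subunit Atp6ap1 (-0.06). The other tested members ran from -0.09 for Atp6v0d1 to 0.51 for Atp6v0a4 (edgeR adjusted p = 0.0591), and Atp6v0d2 was too low to be tested, with no library above 0.262 CPM. Outside the KEGG entry, 2 of 12 tested pump subunits were higher in CSE and 2 lower (edgeR, 33.3%, against 21.2% of all tested genes). Atp6v1c2, a subunit of the cytosolic sector, averaged 24.8 ± 3.5 CPM in CSE against 43.1 ± 5.78 CPM in control (SD, n = 5 each), a log2 fold change of -0.8 (edgeR adjusted p = 0.000223), without overlap. Atp6v0e1 was at -0.25 (edgeR adjusted p = 0.0361), and Atp6v1g1 and Atp6v1b2 were both at 0.23.

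Proteases held some of the most abundant transcripts, and 1 of 13 tested members was higher and 2 were lower in CSE (1 and 3 of 14 by DESeq2, 2 and 5 of 13 with the library set as a block). The edgeR share was 23.1%, against 21.2% of all tested genes (of all genes, 24.9% by DESeq2 and 39.9% with the block). Ctsl, cathepsin L, was higher in CSE, and Ctsb and Ctsh, cathepsins B and H, were lower. Ctsl had 287, 224, 446, 441 and 320 CPM in CSE with naringenin, 548, 378, 623, 376 and 530 CPM in CSE and 385, 379, 207, 224 and 322 CPM in control. The CSE libraries ran from 376 to 623 CPM and overlapped the controls, whose first 2 libraries were higher than their other 3. Ctsl had a log2 fold change of 0.69 ± 0.22 (SE) in CSE against control (1.62-fold, edgeR adjusted p = 0.0391). Within library sets 1, 2 and 3 it was 0.61, 0.81 and 0.72, and with the set as a block its edgeR adjusted p was 2.81e-06. Those sets were derived from the same counts, so this is no separate test of the Ctsl call. Without 1 library the Ctsl call was lost for control 3, 4 or 5 and for CSE 1, 3 or 5, where the adjusted p reached 0.0974.

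Ctsb had 605, 592, 588, 610 and 578 CPM in CSE with naringenin, 559, 626, 613, 604 and 641 CPM in CSE and 696, 732, 713, 689 and 688 CPM in control. All 10 treated libraries were below all 5 controls. Ctsb had a log2 fold change of -0.21 ± 0.05 (SE) in CSE against control, with an edgeR adjusted p of 0.0104, and 0.0581 with counts summed per library set. Ctsh had 268, 266, 245, 245 and 217 CPM in CSE with naringenin, 236, 269, 256, 246 and 197 CPM in CSE and 320, 328, 325, 326 and 263 CPM in control. Control 5 was far below the other controls, which all exceeded every CSE library. The difference for Ctsh was -0.38 ± 0.09 (SE) on the log2 scale, with an edgeR adjusted p of 0.00885. Ctsd, the main aspartic protease, was not past the threshold, at 521 ± 66.5 CPM in CSE against 459 ± 72.5 CPM in control (SD, n = 5 each; log2 0.18, edgeR adjusted p = 0.293). Ctss and Ctsk, known from immune cells and osteoclasts, had 11.5 ± 3.89 and 1.44 ± 0.231 CPM in CSE, against 13.9 ± 2.1 and 1.24 ± 0.531 CPM in control, and neither passed the threshold. Without library 5 of each group, Ctss was lower in CSE, at -0.42 on the log2 scale (edgeR adjusted p = 0.0128). Legumain, Lgmn, an asparaginyl endopeptidase that matures cathepsins, was at -0.34 (edgeR adjusted p = 0.077), and the log2 fold changes of all tested proteases not past the threshold ran from -0.57 for Ctse to 0.22 for Ctsk. Ctsw was too low to be tested, with no library above 0.222 CPM. None of the 3 tested cystatins, which inhibit cysteine cathepsins, passed the threshold by edgeR or DESeq2, and 0 of them had an unadjusted edgeR p under 0.05. Of all genes 21.2%, 24.9% and 34.7% did.

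Of 17 glycosidases, 1 was higher and 2 were lower in CSE by edgeR (17.6%, against 21.2% of all tested genes). The log2 fold change was negative in 14 of the 17, and it was positive in 7881 of all 15860 tested genes. DESeq2 gave 1 higher and 4 lower, where 24.9% of all genes were called. The library set block gave 1 higher and 8 lower, where 39.9% of all genes were called. Gaa had 158, 161, 164, 171 and 183 CPM in CSE with naringenin, 193, 184, 188, 173 and 188 CPM in CSE and 137, 132, 126, 142 and 175 CPM in control. Gaa, the enzyme that breaks down glycogen in lysosomes, was higher in CSE except that control 5 exceeded CSE 4. Gaa (ENSRNOG00000047656, chromosome 10) had a log2 fold change of 0.38 ± 0.08 (SE), with an edgeR adjusted p of 0.00409. Manba, beta-mannosidase, averaged 55.9 ± 2.33 CPM in CSE against 69.2 ± 8.35 CPM in control (SD, n = 5 each), and the groups did not overlap (log2 -0.31, edgeR adjusted p = 0.00645). The abundant fucosidase Fuca1 was at -0.21 and Gla, the enzyme deficient in Fabry disease, at -0.05, neither past the threshold. The 14 glycosidases not past it ran from -0.29 for Gusb to 0.39 for Hyal1.

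The sulfatase role had 7 tested rows, among them Sumf1, which activates sulfatases and is not itself one. Of these rows Arsa, which acts on sulfatide, was lower in CSE, at 64.9 ± 3.16 CPM against 77.3 ± 7.06 CPM in control (SD, n = 5 each). Its log2 fold change was -0.25 (edgeR adjusted p = 0.0234). The highest CSE library had 68.3 CPM and the lowest control 69.7 CPM. The Arsa call was lost without control 1, 2 or 4 or without CSE 5 (adjusted p up to 0.0554). By edgeR this is 14.3% of the role, against 21.2% of all tested genes. With the library set as a block 3 rows of the role were lower and 0 higher, where 39.9% of all genes were called. The log2 fold changes of the role's rows not past the threshold ran from -0.41 for Arsg to 0.19 for Galns.

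Hydrolases of lipids, nucleic acids and phosphate esters, with their activators and the cholesterol exporters, had 3 higher and 2 lower members of 15 tested by edgeR, 4 and 3 by DESeq2, and 4 and 5 with the library set as a block. The edgeR share was 33.3%, against 21.2% of all tested genes (of all genes, 24.9% by DESeq2 and 39.9% with the block). The 2 members lower by edgeR had the largest changes of any called member. Psapl1 had 13.6, 14, 19.4, 24.5 and 43 CPM in CSE with naringenin, 19.1, 15.6, 21.6, 15.6 and 49.9 CPM in CSE and 65.4, 68.1, 36.8, 53 and 112 CPM in control. Among libraries 1 to 4 all treated values of Psapl1, a relative of prosaposin, were below all controls, and library 5 was the highest of each group. Its log2 fold change in CSE against control was -1.46 ± 0.4 (SE), or 0.364-fold, with an edgeR adjusted p of 0.0169. Acp5 had 7.11, 10.6, 7.52, 7.1 and 10.5 CPM in CSE with naringenin, 9.62, 6.84, 5.7, 8.6 and 11.5 CPM in CSE and 11.7, 13.6, 15.5, 17.4 and 51.1 CPM in control. Acp5, tartrate-resistant acid phosphatase, was lower in every treated library than in any control, and control 5 was far above the rest. For Acp5 the log2 fold change was -1.37 ± 0.35 (SE) in CSE against control (edgeR adjusted p = 0.0134), and -0.78 without control 5 (adjusted p = 0.0135).

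Gm2a had 105, 130, 122, 107 and 136 CPM in CSE with naringenin, 143, 135, 127, 141 and 158 CPM in CSE and 86.6, 90.7, 82.6, 85.6 and 155 CPM in control. Gm2a, the activator of ganglioside breakdown, was higher in all 5 CSE libraries than in controls 1 to 4, and control 5 was at the level of the CSE libraries. For Gm2a the log2 fold change was 0.49 ± 0.15 (SE), with an edgeR adjusted p of 0.0317, and 0.7 without control 5 (adjusted p = 8.44e-05). Its call was lost without control 1, 2, 3 or 4 or without CSE 1, 2, 4 or 5, where the adjusted p reached 0.0796. Scarb2, a membrane protein of lysosomes of the CD36 family, was higher in CSE at 192 ± 6.65 CPM against 168 ± 5.84 CPM in control, without overlap (SD, n = 5 each; log2 0.19, edgeR adjusted p = 0.00948). Acp2, lysosomal acid phosphatase, was higher at 25.7 ± 1.81 CPM in CSE against 20.3 ± 2.84 CPM in control (SD, n = 5 each; log2 0.34, edgeR adjusted p = 0.0342). The Acp2 call was lost without control 1, 2 or 5 or CSE 1, 3, 4 or 5 (adjusted p up to 0.0812). Lipa, acid lipase, was at -0.01, Psap at -0.07, and the cholesterol exporters Npc1 and Npc2 at -0.19 and -0.14, none past the threshold. The 10 members of the role not past it ran from -0.3 for Ppt2 to 0.23 for Pla2g15.

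Membrane glycoproteins had 0 higher and 3 lower members of 12 tested by edgeR, 0 and 5 by DESeq2 and 1 and 5 with the library set as a block. The edgeR share was 25%, against 21.2% of all tested genes (of all genes, 24.9% by DESeq2 and 39.9% with the block). Laptm4b had 183, 175, 197, 183 and 186 CPM in CSE with naringenin, 195, 200, 199, 201 and 206 CPM in CSE and 249, 257, 246, 247 and 237 CPM in control. Laptm4b, a multispanning protein of late endosomes, was lower in all 10 treated libraries than in any control. The log2 fold change in CSE against control was -0.3 ± 0.05 (SE), with an edgeR adjusted p of 0.000503. Its relative Laptm4a averaged 347 ± 25.8 CPM in CSE against 407 ± 24.7 CPM in control (SD, n = 5 each; log2 -0.23, edgeR adjusted p = 0.0265). The Laptm4a call was lost without control 5 or without CSE 1, 3 or 4 (adjusted p up to 0.0719). Sort1, sortilin, a sorting receptor of the Golgi, averaged 263 ± 26.5 CPM in CSE against 327 ± 46 CPM in control (SD, n = 5 each; log2 -0.31, edgeR adjusted p = 0.0453). Its call was lost without any 1 of controls 1 to 4 or of CSE 1, 2, 4 and 5 (adjusted p up to 0.0998).

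The proteins most used as markers of lysosomes and late endosomes, Lamp1, Lamp2 and Cd63, were not past the threshold in CSE against control. Lamp1 had 798, 753, 861, 918 and 784 CPM in CSE with naringenin, 905, 871, 931, 821 and 822 CPM in CSE and 948, 964, 797, 856 and 749 CPM in control. The 3 groups overlapped throughout, and the log2 fold change was 0.01 ± 0.08 (SE). Lamp2 averaged 252 ± 11.9 CPM in CSE against 254 ± 27.5 CPM in control, and Cd63 338 ± 28.7 CPM in CSE against 340 ± 55.9 CPM in control (SD, n = 5 each). Cd68 had 2.85, 2.41, 2.76, 3.43 and 6.73 CPM in CSE with naringenin, 3.23, 1.84, 3.16, 2.38 and 5.61 CPM in CSE and 1.59, 1.42, 1.66, 1.6 and 9.47 CPM in control. Cd68, a glycoprotein best known from macrophages, was highest in library 5 of each group. So was Laptm5, a leukocyte gene in other tissues, at 0.17 CPM in CSE with naringenin, 1.26 CPM in CSE and 0.278 CPM in control. Laptm5 had only 165 counts over the 15 libraries, and control 1, at 0.247 CPM, was close to control 5. Ptprc, 1 of the 13 leukocyte markers, had 0 counts in library 5 of CSE with naringenin, 0.838 CPM in CSE 5 and 0 counts in control 5. The other leukocyte markers are not given by library. With all libraries the log2 fold change of Cd68 in CSE against control was 0.05 (edgeR adjusted p = 0.964), and without library 5 of each group it was 0.75 (adjusted p = 0.0184). Lamp3 and Laptm5 had at most 1.69 and 1.26 CPM in any library, with log2 fold changes of -2.28 ± 0.86 and 1.24 ± 1.19 (SE) that were not past the threshold.

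The mannose 6-phosphate route had 0 of 8 members past the threshold by edgeR, by DESeq2 or with the library set as a block, and 0 had an unadjusted edgeR p under 0.05. Of all genes these shares were 21.2%, 24.9%, 39.9% and 34.7%. The largest log2 difference in either direction was -0.12, for Igf2r. Igf2r averaged 319 ± 15.8 CPM in CSE against 346 ± 21.8 CPM in control, and Gnptab, a subunit of the enzyme that adds the tag, 99.9 ± 8.25 CPM in CSE against 96.3 ± 3.01 CPM in control (SD, n = 5 each). M6pr, the small receptor, was at 0.02, and LOC100909548, which the table describes as the cation-dependent mannose 6-phosphate receptor too, was at 0.03. Reads of these 2 genes could have been split by the counting, so both values are uncertain.

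Clathrin and the adaptors that load vesicles bound for lysosomes had 3 higher and 3 lower members of 21 tested by edgeR, 4 and 3 by DESeq2, and 7 and 3 with the library set as a block. The edgeR share was 28.6%, against 21.2% of all tested genes (of all genes, 24.9% by DESeq2 and 39.9% with the block). The heavy and one light chain of clathrin differed in direction. Cltc had 746, 714, 746, 719 and 773 CPM in CSE with naringenin, 855, 778, 894, 803 and 954 CPM in CSE and 675, 643, 685, 654 and 755 CPM in control. Every CSE library had more Cltc, the heavy chain, than any control library or any library with naringenin. The log2 fold change in CSE against control was 0.33 ± 0.07 (SE), with an edgeR adjusted p of 0.00346. Cltb had 52.4, 59.8, 58.2, 60.6 and 62.7 CPM in CSE with naringenin, 69, 67.6, 67.8, 67.7 and 65.3 CPM in CSE and 75.5, 76.7, 74.5, 77.3 and 80.4 CPM in control. For Cltb, a light chain, the 3 groups did not overlap at all, with the libraries with naringenin lowest and the controls highest. Its log2 fold change in CSE against control was -0.19 ± 0.05 (SE), with an edgeR adjusted p of 0.0184 (0.0537 with counts summed per library set), while Clta, the other light chain, was at -0.01 ± 0.09 (SE).

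Ap1s3, a small subunit of the AP-1 adaptor, was higher at 19.9 ± 2.38 CPM in CSE against 14 ± 2.54 CPM in control (SD, n = 5 each; log2 0.51, edgeR adjusted p = 0.0119). Ap1b1, a large subunit of the same adaptor, was lower at 160 ± 3.19 CPM in CSE against 181 ± 4.85 CPM in control, without overlap (SD, n = 5 each; log2 -0.17, edgeR adjusted p = 0.015, and 0.0748 with counts summed per library set). Ap3m2, of the AP-3 adaptor, was lower (log2 -0.36, edgeR adjusted p = 0.00725), and Ap4b1, of AP-4, was higher (log2 0.23, edgeR adjusted p = 0.0305). The Ap4b1 call was lost without control 4 or 5 or without CSE 1, 3, 4 or 5 (adjusted p up to 0.058). The remaining 15 members of the role were not past the threshold, with log2 fold changes between -0.11 and 0.26.

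**Figure D2:**
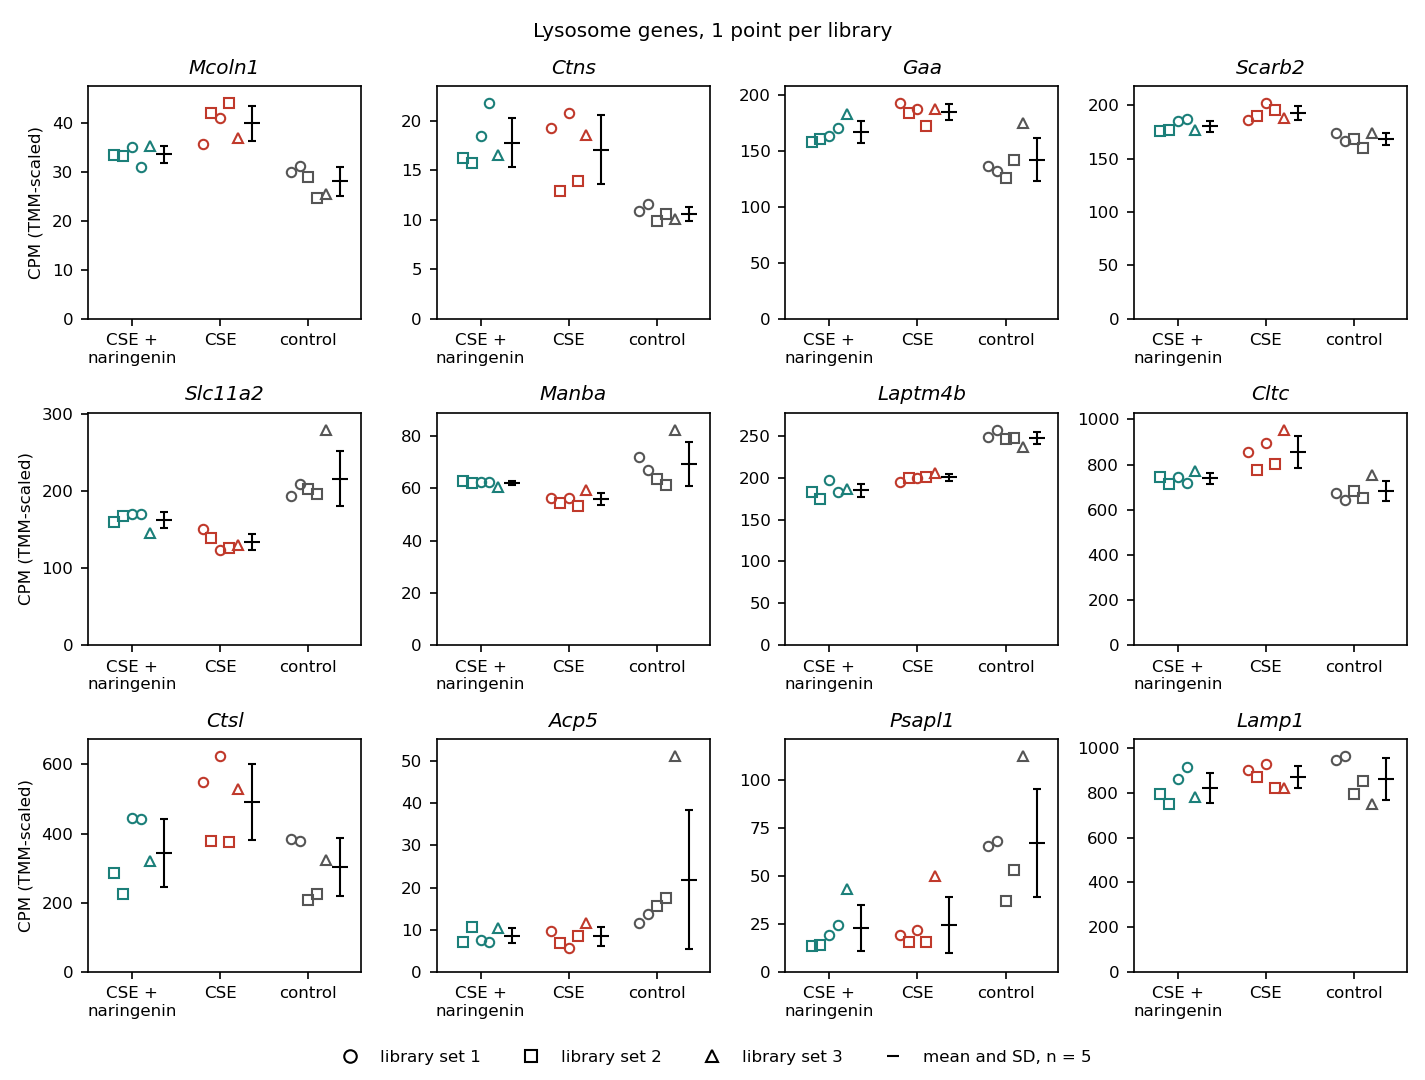
CPM (TMM-scaled) of 12 lysosome genes in each library, by group, with 1 point per library, marker shape for the library set and a bar for mean and SD (n = 5). Mcoln1 and Cltc are higher in all CSE libraries than in controls, Slc11a2, Manba and Laptm4b are lower, and for Acp5 control 5 lies at 51.1 CPM against 11.7 to 17.4 CPM in the other controls.

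The second comparison asks what naringenin changed in cells that received CSE. By edgeR 0 of 109 tested members passed the threshold, against 0.908% of all tested genes (0.334% higher, 0.574% lower). At an unadjusted p under 0.05 there were 19 of the 109, against 13.2% of all genes. DESeq2 called 2 higher, among them Npc2 (adjusted p = 0.00933), and 2 lower (Cltb, 0.00828, and Cltc, 0.0419), which is 3.7% of 108 members against 4.01% of all genes. With the library set as a block, 9 members were higher and 7 lower (14.7%), against 12.7% of all genes, while counts summed per library set gave 1 higher and 1 lower of 111 (1.8%, against 1.07%). The largest log2 values among these 16 were 0.61 for Ctse, an aspartic protease, and -0.53 for Ctsl. Both were selected by that fit and had the same sign in all 3 sets, with Ctse at 0.58, 0.56 and 0.82 and Ctsl at -0.4, -0.57 and -0.73.

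Members that had differed between CSE and control had these values in CSE with naringenin against CSE, a comparison that shares the CSE libraries with the first. Mcoln1 was at -0.25 ± 0.08 (SE) on the log2 scale (edgeR adjusted p = 0.167), and all 5 libraries with naringenin lay below all 5 CSE libraries. Cltc was at -0.21 ± 0.07 (SE; adjusted p = 0.155) and Slc11a2 at 0.28 ± 0.1 (SE; adjusted p = 0.205). Cltb had the smallest edgeR adjusted p of the members, 0.0786, at -0.2 ± 0.05 (SE). Ctns was at 0.06, Acp5 at 0.02, Psapl1 at -0.09, Ctsb at -0.03 and Ctsh at 0.04, all with an edgeR adjusted p of at least 0.85. Without library 5 of each group, Cltb (-0.24, adjusted p = 0.0388) and Slc11a2 (0.3, adjusted p = 0.0365) passed the threshold, or 1.85% of 108 members against 1.59% of all genes. The groups did not overlap for 6 members, with Manba and Entpd4 higher and Cltc, Cltb, Cd63 and Mcoln1 lower with naringenin, which is 5.5% against 4.77% of all genes. Cd63 had 261, 238, 298, 274 and 301 CPM in CSE with naringenin, 337, 320, 358, 302 and 374 CPM in CSE and 393, 391, 271, 293 and 351 CPM in control. Cd63, a tetraspanin of late endosomes and exosomes, was thus lower in every library with naringenin than in any CSE library (log2 -0.3, edgeR adjusted p = 0.218).

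**Figure D3:**
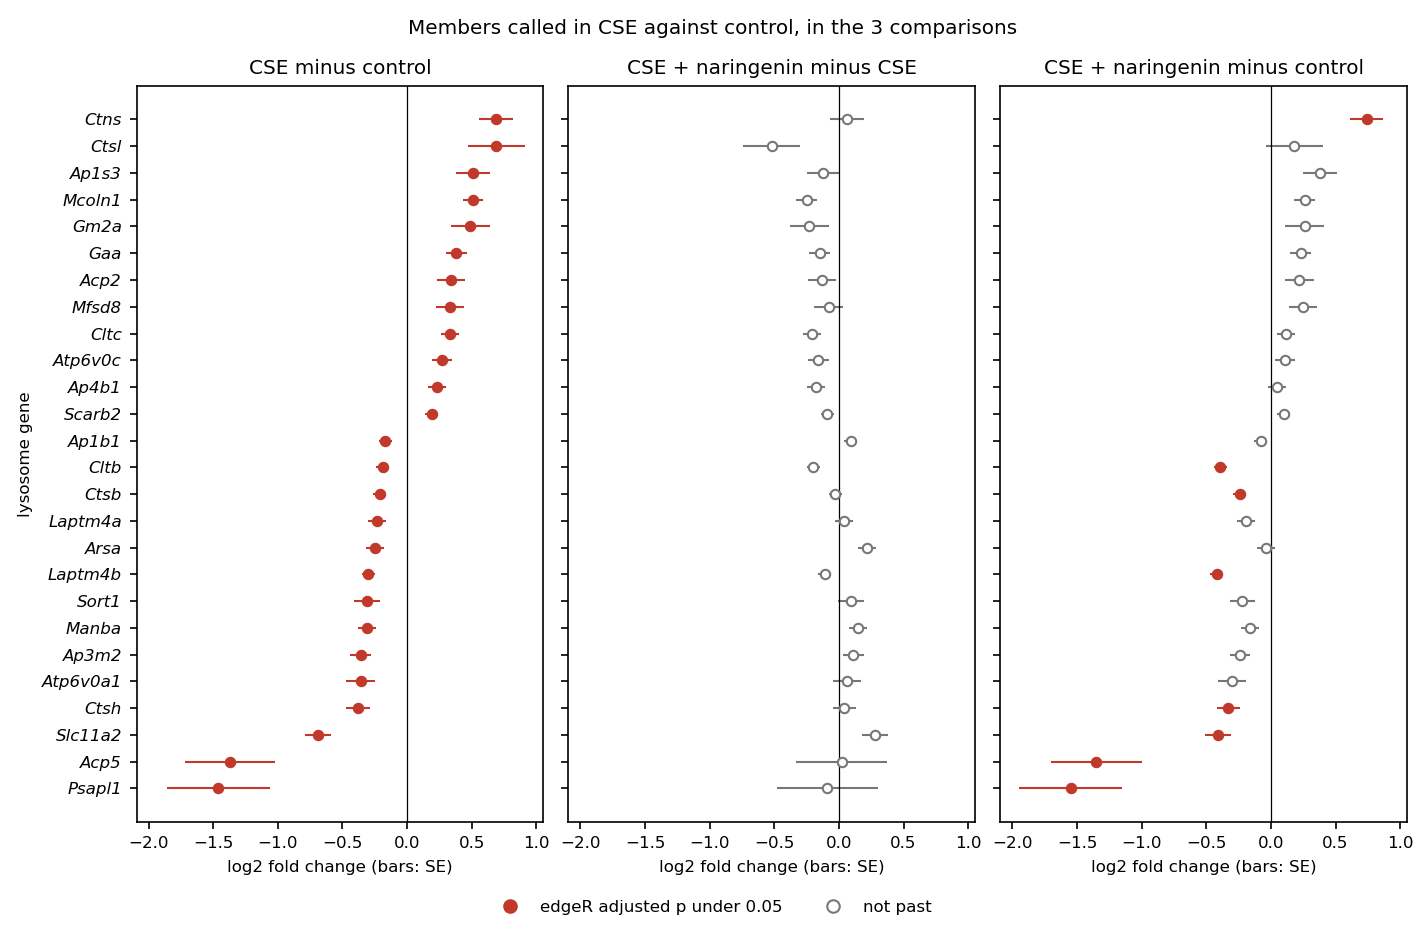
Log2 fold change with its SE (edgeR) of 26 of the 27 lysosome genes past the threshold in CSE against control, in the 3 comparisons, which share libraries. Filled red points are past an adjusted p of 0.05: all 26 in the left panel, where the genes were selected, none in the middle panel and 8 in the right panel.

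The third comparison sets CSE with naringenin against untreated control. Here 3 of 109 members were higher and 7 lower (edgeR), or 9.17%, against 8.16% of all genes tested (4.26% higher, 3.9% lower). This count shares the control libraries with the first comparison and the treated ones with the second. The higher members were Ctns (log2 0.74 ± 0.13 SE, edgeR adjusted p = 0.00371), Galns, a sulfatase of keratan sulfate (0.52 ± 0.15, adjusted p = 0.0463), and Pla2g15, a lysosomal phospholipase (0.32 ± 0.08, adjusted p = 0.0264). The lower ones were Laptm4b (log2 -0.42 ± 0.05 SE, edgeR adjusted p = 0.000133), Cltb (-0.39 ± 0.05, 0.000448), Ctsb (-0.24 ± 0.05, 0.0101), Slc11a2 (-0.41 ± 0.1, 0.0183), Psapl1 (-1.55 ± 0.4, 0.0272), Acp5 (-1.35 ± 0.35, 0.0302) and Ctsh (-0.33 ± 0.09, 0.0357). Pla2g15 had 15.4, 16.1, 14.6, 13.6 and 15.5 CPM in CSE with naringenin, 13, 13.8, 13.3, 14.5 and 16.1 CPM in CSE and 11, 12.8, 11.8, 12.9 and 11.8 CPM in control. Every library with naringenin had more Pla2g15 than any control, and CSE libraries overlapped those with naringenin. Galns had 13.3, 15, 9.95, 9.18 and 12 CPM in CSE with naringenin, 8.47, 8.62, 10.4, 11.4 and 8.45 CPM in CSE and 7.43, 6.91, 9.89, 9.21 and 8.18 CPM in control. The Galns values of the groups overlapped, and leaving out control 1, 2, 4 or 5 or library 1, 2, 3 or 5 of CSE with naringenin ended the call (adjusted p up to 0.107).

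Without 1 library, the count of higher members was 1 without control 1 or without library 1, 2, 3 or 5 of CSE with naringenin, and 7 without control 5, and upper-quartile scaling gave 6 higher and 6 lower. The count of lower members was 4 without library 3 or 4 of CSE with naringenin. Calls were lost for Acp5 without libraries 1, 3 or 4 of CSE with naringenin (adjusted p up to 0.0747), and without control 5 its log2 fold change was -0.77 (adjusted p = 0.0313). Psapl1 was lost without control 5 or without libraries 1, 2, 3 or 4 of CSE with naringenin (up to 0.0712), Ctsh without controls 1 to 4 or libraries 3, 4 or 5 of CSE with naringenin (up to 0.0805), and Pla2g15 without control 1 or 3 or libraries 1, 2, 3 or 5 of CSE with naringenin (up to 0.0634). Ctns, Laptm4b, Cltb, Ctsb and Slc11a2 stayed past the threshold in each of these 10 fits. Without library 5 of each group, 6 of 108 members were higher and 11 lower (15.7%, against 8.78% of all genes), and 8 of the 10 calls were kept. In that fit Gm2a (log2 0.42, adjusted p = 0.00482), Gaa (0.28, 0.0092), Cd68 (0.86, 0.0196), Lipa (0.19, 0.0273) and Ap1s3 (0.48, 0.0379) were also higher than in control. The members lower there and not in the fit of all libraries included Sort1 (-0.28, 0.0326), Atp6v0a1 (-0.31, 0.0358) and Ctss (-0.38, 0.038), while Pla2g15 (0.29, 0.0535) and Galns (adjusted p = 0.117) were not past the threshold. The groups did not overlap for 8 members (3 higher, 5 lower), or 7.34%, against 8.27% of all genes. With the library set as a block there were 14 higher and 18 lower members (29.4%, against 26.4% of all genes), and all 10 calls were kept. Counts summed per library set gave 2 higher and 9 lower of 111 (9.91%, against 9.76% of all genes) and kept 8 of the 10 calls, those of Pla2g15 and Slc11a2 (adjusted p = 0.0521) being lost. DESeq2 called 5 higher and 10 lower of 109 (13.8%, against 13.5% of all genes).

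Genes that act with lysosomes but lie outside the KEGG entry were read from the same fits. Of 20 tested genes of the TFEB family and of mTORC1 signalling at the lysosome, 3 were higher in CSE than in control and 0 lower, by edgeR and by DESeq2, and 5 higher and 1 lower with the library set as a block. The edgeR share was 15%, against 21.2% of all tested genes (of all genes, 24.9% by DESeq2 and 39.9% with the block). Slc38a9, the arginine sensor of the lysosomal membrane, was at 0.29 (edgeR adjusted p = 0.0119), Lamtor1, a Ragulator subunit, at 0.24 (0.0409) and the Rag GTPase Rraga at 0.22 (0.0421). The transcription factors were not past the threshold, with Tfeb at -0.26 ± 0.15 (SE; adjusted p = 0.258), Tfe3 at 0.19 ± 0.1 (SE; adjusted p = 0.171) and Mitf at -0.12 ± 0.41 (SE; adjusted p = 0.868). RNA levels of these factors say nothing of their place in the cell, through which they are known to be regulated.

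Of 27 tested autophagy genes, 4 were higher and 4 lower in CSE by edgeR (29.6%, against 21.2% of all tested genes). Sqstm1 had 669, 551, 872, 875 and 731 CPM in CSE with naringenin, 1333, 960, 1585, 943 and 1264 CPM in CSE and 480, 482, 433, 437 and 471 CPM in control. Sqstm1, the receptor p62 that brings ubiquitinated cargo to autophagosomes and a known target of NRF2, was highest in all CSE libraries and next in those with naringenin. Its log2 fold change was 1.4 ± 0.15 (SE) in CSE against control (edgeR adjusted p = 2.44e-05), -0.72 in CSE with naringenin against CSE (0.0368) and 0.68 in CSE with naringenin against control (0.0112). Atg16l1 (log2 0.37), Wipi2 (0.22) and Atg5 (0.2), which act in lipidation of LC3, were also higher in CSE than in control. Wipi1 (log2 -0.82, edgeR adjusted p = 0.0304), the kinase Ulk1 (-0.41, 0.000823), the receptor Optn (-0.27, 0.0141) and Atg13 (-0.25, 0.011) were lower. Of 9 tested genes of the response to damaged lysosomes, Plaa (log2 0.38, edgeR adjusted p = 0.00217) and its partner Vcp (0.32, 0.00201) were higher in CSE and 0 were lower (DESeq2 gave 2 and 1, the library set block 4 and 1). By edgeR this is 22.2%, against 21.2% of all tested genes (of all genes, 24.9% by DESeq2 and 39.9% with the block).

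Library 5 stood outside the other 4 libraries of its group in the same direction in all 3 groups for 28 of 109 tested members, or 25.7%, of which 22 were higher and 6 lower. Over all tested genes this share was 16.5%. Library 5 is set 3 by itself, and sets were found in these counts. Among the higher ones were Laptm5, Cd68, Psapl1, Hyal1, Ctss, Lgmn and Lipa, and among the lower ones Ctsh, Sort1 and Atp6v0a1. Psapl1 in library 5 was above the mean of the other 4 libraries by 1.26, 1.47 and 1 on the log2 scale in CSE with naringenin, CSE and control. For Lipa these differences were 0.28, 0.31 and 0.38, and for Ctsh -0.24, -0.35 and -0.3. With library 5 of each group left out, CSE had 10 higher and 20 lower members of 108 relative to control (27.8%, against 19.3% of all genes), and 23 of the 27 calls were kept, Ctsl, Mfsd8, Acp2 and Ap4b1 being lost.

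**Figure D4:**
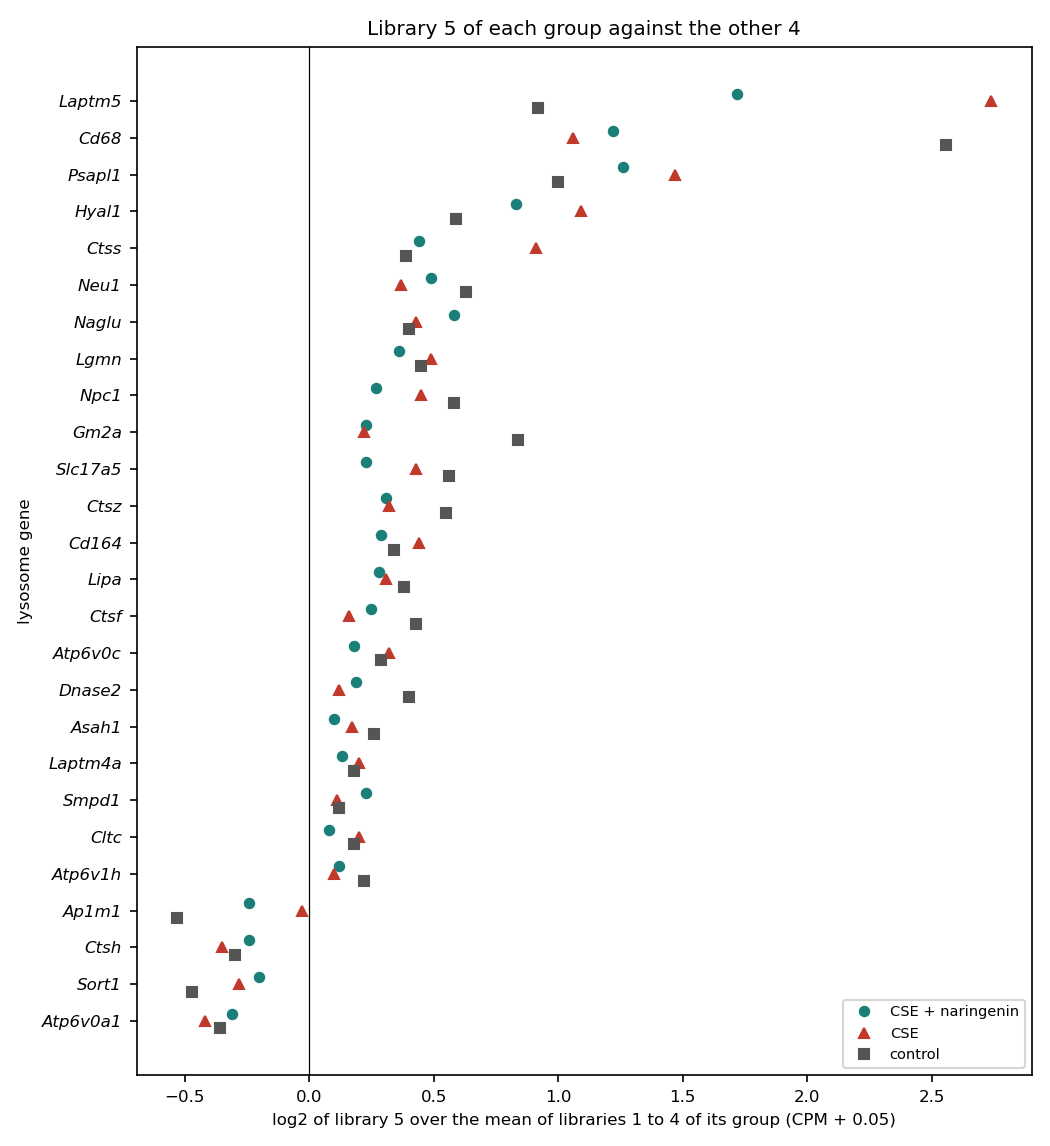
Log2 of library 5 over the mean of libraries 1 to 4 of its group (CPM + 0.05) for 26 of the 28 lysosome genes in which library 5 lay outside the others in the same direction in all 3 groups, with 1 marker per group. Values above 0 (22 genes) are higher in library 5, and those below 0 (4 genes) are lower.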

How the data were processed

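Poly(A) RNA of rat tracheal epithelial cells was read in pairs, in 15 libraries or 5 per group, from strand-specific libraries with molecular identifiers, per the labels' protocols. The deposited counts per gene are whole numbers without normalization, and the FPKM beside them are the authors' own values. Tools listed without a role, per the submitters' processing notes, are HISAT2 2.0.4, cutadapt 1.9, StringTie 1.3.4d, UMI-tools, edgeR and DESeq2. The sources used here do not give the build, the use of strand or the merging of identifiers.

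All comparisons used the quasi-likelihood F test of edgeR 4.0.16 (R 4.3.3), with TMM scaling and filterByExpr (1 fit of all 15 libraries, two-sided, Benjamini-Hochberg adjustment over 15860 genes), with an adjusted p under 0.05 as the threshold. The code was tested on simulated data. Group means are given with the SD over 5 libraries. Members, role lists and other lists were chosen with earlier results of these data known, and roles only order the members. Named members were, in each role, up to 3 past the threshold with the largest change per comparison, the 2 with the highest FPKM and a fixed list of well-known genes; the other called members, and others named for a library that stood apart, a fit that called them, a promoter match or their level, were added after their values were seen. Some members are not reported here.

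Totals were 55.1 to 60.6 M counts, so the floor of 3 counts equals 0.0495 to 0.0545 CPM and covers counting error only. Pairs of libraries of 1 group differed by more than sampling noise: the median chi-square per gene was 2.77 to 5.71 in the 6 pairs within a set and 7.42 to 20.9 in the 24 between sets, against 0.455 expected, so none was taken as a repeat deposit. Alternatives were RLE and upper-quartile scaling, DESeq2 1.42.0, no filter, only 2 groups in the fit, blocks by replicate number or library set, and each library left out. Sums per library set and leaving out set 3 were added after seeing the data. Promoters were matched by symbol to RefSeq, build GRCr8.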

Additional observations from a re-analysis of the deposited data

Results flagged for a closer look

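A library stood apart from the other 4 of its group, by Dixon's 95% criterion, in 17 of 153 groups of 5 values examined over the named members reported here, and 15 of these were a library 5. Chance gives about 1 in 20 such groups, and the members share their libraries.

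In control 5, 7 members were far above the other controls: Acp5 at 51.1 CPM (others 11.7 to 17.4), Cd68 at 9.47 CPM (1.42 to 1.66), Gm2a at 155 CPM (82.6 to 90.7), Slc11a2 at 280 CPM (194 to 209), Lipa at 234 CPM (177 to 182), Lamp2 at 302 CPM (233 to 252) and Atp6v0c at 547 CPM (438 to 460). Ctsh, at 263 CPM (320 to 328), was far below them.

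In CSE 5, Atp6v0c was at 672 CPM (503 to 551), Psapl1 at 49.9 CPM (15.6 to 21.6) and Ctss at 18.4 CPM (9.06 to 10.5), all above the other CSE libraries, and Atp6v0a1 at 63.7 CPM (83.9 to 87.3) was below them. In library 5 of CSE with naringenin, Lipa at 250 CPM (201 to 209) and Cd68 at 6.73 CPM (2.41 to 3.43) were above the rest, and Manba at 60.5 CPM (62.1 to 62.6) was below. The 2 others were low in a library 2: Mfsd8 at 12.6 CPM in CSE with naringenin (16.5 to 17.8) and Ap4b1 at 23.7 CPM in CSE (25.9 to 26.2). The cause was not tested.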

How the results depend on the processing

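With all libraries in 1 edgeR fit, members called were 12 higher and 15 lower (CSE against control), 0 and 0 (CSE with naringenin against CSE) and 3 higher and 7 lower (CSE with naringenin against control). With the library set as a block they were 20 and 31, 9 and 7, and 14 and 18. By DESeq2 they were 15 and 21, 2 and 2, and 5 and 10, and with counts summed per library set under the same block 12 and 17, 1 and 1, and 2 and 9. Upper-quartile scaling gave 6 higher for the last, and moved the split of CSE against control to 16 higher and 13 lower. Library set 3 left out gave 10 and 20, 1 and 1, and 6 and 11 in the 3 comparisons. Leaving out 1 library gave 7 to 10 higher and 12 to 16 lower (CSE against control), 0 and 0 (CSE with naringenin against CSE), and 1 to 7 higher and 4 to 7 lower (CSE with naringenin against control). In these fits 17 of 27 calls of CSE against control and 5 of 10 of CSE with naringenin against control were kept every time. No value named in the text and called changed sign under these alternatives. The cause of each shift was not tested.

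The labels number libraries 1 to 5 in each group. Deviations of same-numbered libraries correlated between -0.337 and 0.327 (CSE against control), -0.359 and 0.386 (CSE with naringenin against CSE) and -0.394 and 0.272 (CSE with naringenin against control), so the numbers as a whole do not pair the libraries. The libraries numbered 5, which form set 3, correlated at 0.3, 0.347 and 0.272 in these comparisons. With the replicate block the counts were 12 higher and 17 lower, 0 and 0, and 3 higher and 10 lower.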

Other observations

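Some members not past the threshold in any comparison of the edgeR fit without a block differed between library sets 1 and 2 in the same direction in every group. Because the sets were derived from the same libraries, this is a description. Slc11a1, a metal transporter known from macrophage phagosomes, had 37.7 and 47.6 CPM in the set 1 libraries of CSE with naringenin, 41 and 49.4 CPM in those of CSE and 52 and 50.8 CPM in those of control. In set 2 it had 29.9 and 21 CPM in CSE with naringenin, 32.1 and 30.2 CPM in CSE and 23.3 and 28.8 CPM in control. Ctse, an aspartic protease, was lower in set 1, with 17.6 and 15.7 CPM in CSE with naringenin, 13.3 and 9.26 CPM in CSE and 15.8 and 17.6 CPM in control. Its set 2 values were 27.4 and 29.2 CPM in CSE with naringenin, 21.1 and 17.3 CPM in CSE and 27.5 and 27.6 CPM in control. With the library set as a block, Ctse was past the threshold in CSE with naringenin against CSE. Slc11a1 and Ctse were chosen after their values were seen.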
